A study of Arabidopsis thaliana with 8 samples.

Results

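Among the leaf transcripts measured, 214 probe sets stood higher on both imidacloprid arrays than on each of the other 6 arrays by a wide margin, and they are described here by function and by treatment. A probe set is a group of probes on an Affymetrix array that are read together, most often for 1 gene and sometimes for several. It was a member if its lower imidacloprid array exceeded the highest other array by at least 1.5 on the log2 scale. That margin is called the gap below. Of 22810 probe sets, 64 array controls were set aside, 223 of the remaining 22746 passed the gap, and 9 of these were left out: 7 with a UGT or GH3. symbol and 2 by identifier, which read the beta-glucosidase genes BGLU45 and BGLU46. The rule also bars genes of the plastid and mitochondrial genomes, and none of the named ones had passed the gap. Because the rule used all 8 arrays, membership, gaps and the members' differences from imidacloprid are descriptions without a test.

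The arrays measured total RNA of fully expanded mature leaves of wild-type Arabidopsis thaliana, strain Columbia-0. Treated plants were 4 weeks old and received imidacloprid, clothianidin or salicylic acid, each at 4 mM. Their leaves were harvested after 4 days, as were those of plants left untreated. Each of the 4 groups held 2 arrays, 1 from each of 2 independent experiments. The aim on record is the response to neonicotinoid insecticides. Several plants grew in each box, and how many were pooled per sample is not given in the sources used here. The comparison group was untreated rather than treated with a solvent or a mock spray, as far as the labels say.

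Imidacloprid and clothianidin are neonicotinoids, insecticides that act on insect acetylcholine receptors, and salicylic acid is a plant hormone of defence. Plant cells commonly deal with foreign compounds in steps: oxidation, reduction or hydrolysis, then conjugation to a sugar or to glutathione, then transport into the vacuole or the cell wall. Leaves under stress also recycle amino acids and damaged proteins through catabolic enzymes, chaperones and autophagy, the delivery of cell material to the vacuole.

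All levels are log2 expression summaries, so a difference of 1 is a doubling, and paired values are given for replicate 1 and then replicate 2. The members' median level was 8.55 and 8.74 with imidacloprid, 2.91 and 3.04 in untreated leaves, 5.28 and 3.43 with clothianidin and 4.19 and 4.07 with salicylic acid. Over all 22746 probe sets the array medians lay between 4.84 and 5.09. Among the arrays without imidacloprid, the first clothianidin array had the highest median of the members and the untreated arrays the lowest. On both imidacloprid arrays 189 members reached a level of 5 and 107 a level of 8, whereas 44 were at 5 or above on both untreated arrays and 11 at 8 or above. Levels of single probe sets are not set against each other here, since each depends on its own probes.

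**Figure D1:**
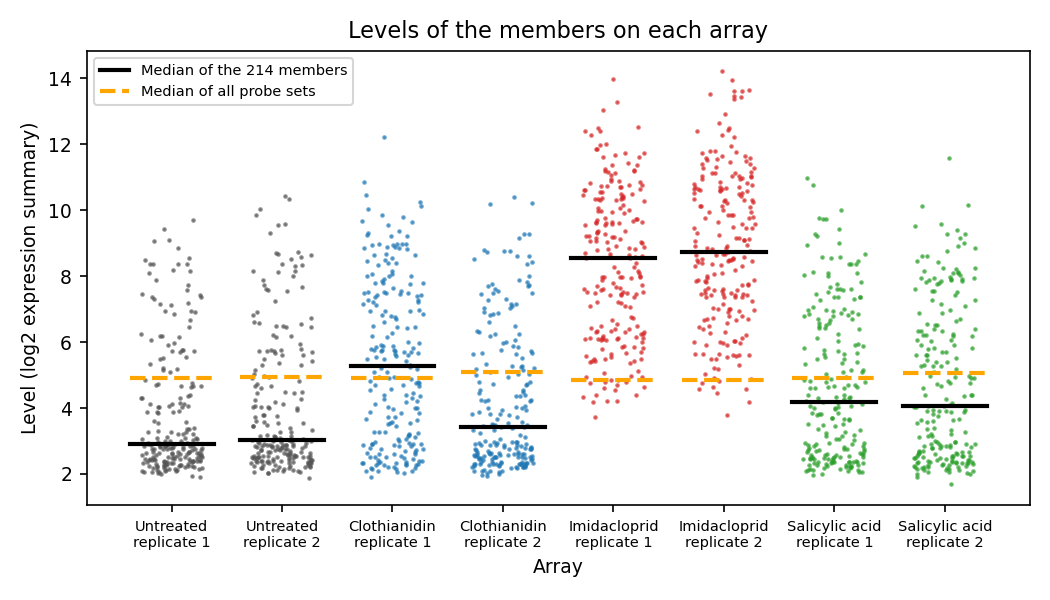
Level of each of the 214 members (points, log2 expression summary, vertical axis) on each of the 8 arrays (horizontal axis), with the members' median as a black bar and the median of all 22746 probe sets as a dashed orange bar. The imidacloprid medians are 8.55 and 8.74, and the clothianidin medians of 5.28 and 3.43 differ between replicates.

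The gap ran from 1.502 to 5.60, with a median of 2.15. Imidacloprid minus untreated had a median of 4.205, beside 0.02 over all probe sets. The last 3 members inside the threshold had gaps of 1.506, 1.505 and 1.502, and the next 3 probe sets outside it had 1.499, 1.497 and 1.496. Applied in the same way to the other groups, the rule found 1 probe set high with clothianidin, 0 with salicylic acid and 1 in untreated leaves.

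A single locus could be named for 85 of the 214 members. Another 6 had several genes in the probe table, 1 had a gene that matched no current locus, and 122 had no entry. All of these are described by level alone, so the account of functions covers a minority of the members. Gaps among the named 85 ran from 1.53 to 4.09, so the widest gaps belong to probe sets without a name. The widest of all, 262047_at, read 11.25 and 12.44 on the imidacloprid arrays, 2.59 and 2.63 in untreated leaves, 5.65 and 3.43 with clothianidin and 4.01 and 5.27 with salicylic acid. Probe set 264415_at came next, with 7.61 and 12.63 on the imidacloprid arrays, 2.15 and 2.17 in untreated leaves, 2.17 and 2.10 with clothianidin and 2.15 and 2.15 with salicylic acid. Both were far above every other array on the imidacloprid pair, although the replicates of 264415_at lay wide apart.

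In 23 members, 12 of them named, all 6 arrays without imidacloprid read less than 2.49. That level, the 25th percentile averaged over arrays, lies close to background. The same was true of 4614 of all 22746 probe sets. For these 23 the order of the other arrays carries no information. In 42 members both untreated arrays lay under that level, so differences from untreated leaves are not exact in them. The imidacloprid levels of the 23 ran from 3.74 to 12.63.

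**Figure D2:**
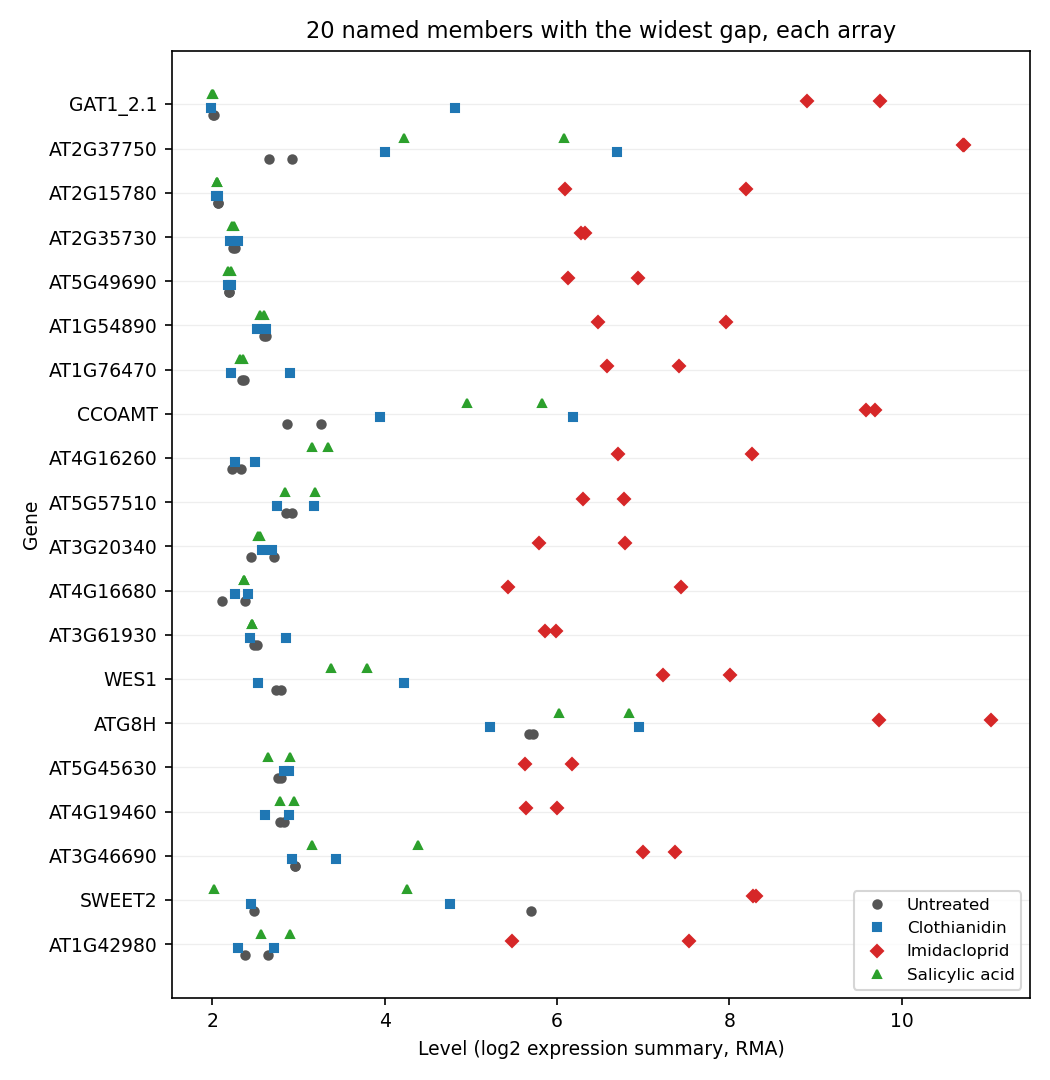
Level (log2 expression summary, horizontal axis) of the 20 named members with the widest gap (vertical axis, widest at the top), with 2 points per group, 1 for each array. The lower imidacloprid point of each gene lies to the right of its other 6 points, by 2.57 to 4.09.

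Enzymes that handle amino acids and amide nitrogen were represented by 4 named members, with gaps from 1.53 to 4.09. GAT1_2.1 (AT1G15040), annotated as a glutamine amidotransferase, had the widest gap of all named members, and its levels were 9.74 and 8.91 on the imidacloprid arrays, 2.01 and 2.02 in untreated leaves, 4.82 and 1.99 with clothianidin and 2.01 and 2.0 with salicylic acid. It was near background on 5 of the 6 other arrays, and only the first clothianidin array stood above them. A second probe set for the same gene read 2.83 and 4.21 with imidacloprid and between 2.16 and 2.20 elsewhere, so its imidacloprid arrays were also above all others, but its first clothianidin array was not set apart. ASPGB1, an asparaginase that releases ammonium from asparagine, was measured at 4.85 and 3.72 in untreated leaves, 4.47 and 3.43 with clothianidin, 4.15 and 3.56 with salicylic acid and 8.10 and 6.99 with imidacloprid. MGL, methionine gamma-lyase, which breaks methionine down and feeds isoleucine synthesis, had levels of 8.59 and 10.26 on the imidacloprid arrays, 5.17 and 6.57 in untreated leaves, 5.62 and 5.67 with clothianidin and 5.94 and 6.21 with salicylic acid. Neither gene showed a clothianidin or salicylic acid mean above untreated by more than 0.21. GFAT, which makes the first committed amino sugar phosphate from glutamine and fructose 6-phosphate, had the narrowest gap of the 4, at 1.53. It read 4.80 and 4.76 with imidacloprid and at most 3.23 elsewhere.

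Carbon and mitochondrial metabolism gave 5 named members, all of them well above background in every group. ETFQO, the electron-transfer flavoprotein:ubiquinone oxidoreductase that passes electrons from amino acid breakdown into the respiratory chain, read 5.77 and 5.80 in untreated leaves, 5.32 and 5.26 with clothianidin, 5.92 and 4.98 with salicylic acid and 7.97 and 8.49 with imidacloprid. Clothianidin and salicylic acid leaves were no higher than untreated leaves on average (differences of -0.50 and -0.33). SDH2-1, an iron-sulfur subunit of succinate dehydrogenase in respiratory complex II, was at 10.96 and 10.80 on the imidacloprid arrays, 8.19 and 7.68 in untreated leaves, 8.99 and 7.54 with clothianidin and 8.13 and 8.44 with salicylic acid. Its second probe set lay between 2.02 and 2.11 on all 8 arrays, near background, and so gives no second reading. AT5G17380, of the thiamine diphosphate dependent decarboxylase family, showed 7.36 and 8.14 in untreated leaves, 8.35 and 8.36 with clothianidin, 8.36 and 9.0 with salicylic acid and 10.72 and 12.50 with imidacloprid. PPDK, pyruvate orthophosphate dikinase, which turns pyruvate into phosphoenolpyruvate and was chosen after its values were seen, had imidacloprid levels of 11.19 and 11.14 beside untreated levels of 7.73 and 9.57. Its gap fell to 1.46 with repeated quantile normalization, under the threshold. All 5 lay between 7.97 and 12.5 on the imidacloprid arrays.

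Relatives of lignin precursor enzymes made up 3 named members. CCOAMT (AT1G67980), annotated as a caffeoyl-CoA 3-O-methyltransferase, had levels of 9.69 and 9.59 on the imidacloprid arrays, 3.27 and 2.87 in untreated leaves, 6.19 and 3.95 with clothianidin and 4.96 and 5.83 with salicylic acid. All 4 clothianidin and salicylic acid arrays were above both untreated arrays, and all were below imidacloprid by at least 3.40. AT1G76470, of the cinnamoyl-CoA reductase-like family, was measured at 2.34 and 2.36 in untreated leaves, 2.91 and 2.22 with clothianidin, 2.32 and 2.35 with salicylic acid and 7.41 and 6.59 with imidacloprid. Apart from the first clothianidin array, all arrays without imidacloprid were near background. AT1G09500, of the same reductase-like family, read 10.30 and 12.41 on the imidacloprid arrays, 4.14 and 6.46 in untreated leaves, 8.01 and 7.15 with clothianidin and 6.97 and 7.98 with salicylic acid. Unlike AT1G76470 it was well above background in every group. Among 20 genes of lignin precursor synthesis and its beta-glucosidases, 4 were measured under a single name: HCT, CCR2, BGLU45 and BGLU46. The last 2, genes for enzymes that act on lignin precursor glucosides, passed the gap at 3.77 and 3.35 but were left out by the rule. HCT and CCR2 had gaps of -1.31 and -2.71, so both were exceeded by an array of another group.

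Glycosyltransferases remained among the members where their symbol does not begin with UGT. AT5G49690, of the UDP-glycosyltransferase superfamily, which joins sugars to small molecules, had levels of 6.13 and 6.94 on the imidacloprid arrays, 2.19 and 2.20 in untreated leaves, 2.22 and 2.18 with clothianidin and 2.22 and 2.19 with salicylic acid. AT3G46690, of the same superfamily, was at 2.97 and 2.96 in untreated leaves, 3.44 and 2.92 with clothianidin, 3.15 and 4.39 with salicylic acid and 7.37 and 7.0 with imidacloprid. AT5G49690 was at background outside imidacloprid, while AT3G46690 had its highest other value on the second salicylic acid array. AT4G19460, another glycosyltransferase, read 5.64 and 6.0 with imidacloprid and between 2.61 and 2.95 elsewhere. AT3G57380 and AT3G10320, of another glycosyltransferase family, had imidacloprid means of 6.21 ± 0.12 and 7.27 ± 0.13 (SD, n = 2). Their highest other array was salicylic acid replicate 2 in both cases, at 3.90 and 5.47.

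Oxidoreductases outside these groups numbered 4. AT5G39580, a class III peroxidase, was 4.63 and 5.92 on the imidacloprid arrays, 2.13 and 2.13 in untreated leaves, 2.15 and 2.10 with clothianidin and 2.11 and 2.11 with salicylic acid. AT3G44190, an FAD/NAD(P)-binding oxidoreductase, had 6.91 and 6.75 in untreated leaves, 7.50 and 6.05 with clothianidin, 6.94 and 6.69 with salicylic acid and 9.99 and 9.94 with imidacloprid. The first was at background without imidacloprid and the second was expressed throughout. AT1G60730, an aldo-keto reductase family member, read 8.13 and 8.51 on the imidacloprid arrays, 4.35 and 4.81 in untreated leaves, 5.82 and 5.26 with clothianidin and 5.63 and 6.19 with salicylic acid. Its clothianidin and salicylic acid arrays were all above both untreated arrays. AT4G13180, of the short-chain dehydrogenase family, had imidacloprid levels of 10.77 and 11.0 and lay between 6.47 and 8.94 elsewhere.

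Membrane transport and metal binding gave 5 named members. AT2G35730, of the heavy metal-associated domain family, was measured at 6.32 and 6.27 on the imidacloprid arrays, 2.24 and 2.27 in untreated leaves, 2.30 and 2.21 with clothianidin and 2.26 and 2.23 with salicylic acid. Its replicates agreed within 0.05 on the imidacloprid arrays and all 6 other arrays were at background. AT1G71140, AT5G65380 and AT1G33110 belong to the MATE family of efflux carriers, which move small organic molecules out of the cytosol. AT1G71140 read 6.23 and 5.35 in untreated leaves, 6.46 and 4.80 with clothianidin, 6.89 and 5.60 with salicylic acid and 9.19 and 9.48 with imidacloprid. AT5G65380 was at 11.07 and 11.04 on the imidacloprid arrays, 8.35 and 8.59 in untreated leaves, 9.22 and 8.62 with clothianidin and 9.22 and 8.21 with salicylic acid. AT1G33110 had the narrowest gap of the 3, with 5.08 and 5.31 in untreated leaves, 5.79 and 5.10 with clothianidin, 5.88 and 5.60 with salicylic acid and 7.43 and 8.94 with imidacloprid. In all 3 carriers the highest other array was salicylic acid replicate 1, but for AT5G65380 clothianidin replicate 1 also read 9.22. For AT1G33110 these arrays read 5.88 and 5.79, so little is to be read from that order. With repeated quantile normalization the gap of AT1G33110 was 1.4995, just under the threshold. SWEET2, a sugar transporter of the vacuolar membrane, had levels of 8.28 and 8.32 on the imidacloprid arrays, 5.70 and 2.48 in untreated leaves, 4.76 and 2.46 with clothianidin and 4.26 and 2.02 with salicylic acid. Outside imidacloprid the replicate 1 array was above the replicate 2 array in every group, and all replicate 2 arrays were near background.

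Protein and organelle turnover was represented by 5 named members. ATG8H, a ubiquitin-like protein of the autophagosome membrane, was at 9.73 and 11.03 on the imidacloprid arrays, 5.72 and 5.67 in untreated leaves, 6.95 and 5.22 with clothianidin and 6.84 and 6.02 with salicylic acid. Apart from imidacloprid, the first clothianidin and first salicylic acid arrays were its highest. Fes1A, a nucleotide exchange partner of HSP70 chaperones needed for heat tolerance, read 5.53 and 3.39 in untreated leaves, 7.28 and 3.44 with clothianidin, 5.37 and 4.41 with salicylic acid and 9.03 and 11.16 with imidacloprid. AT2G20560, of the DNAJ family of HSP70 partners, had 9.16 and 9.64 on the imidacloprid arrays, 5.18 and 4.01 in untreated leaves, 7.12 and 3.81 with clothianidin and 5.17 and 4.40 with salicylic acid. In both chaperone genes the first clothianidin array was the highest outside imidacloprid, and the second was lower by more than 3. The subtilisin-like protease genes AT5G58840 and SBT3.5, the latter chosen after its values were seen, had imidacloprid means of 4.92 ± 0.99 and 10.68 ± 0.66 (SD, n = 2) and untreated means of 2.42 ± 0.09 and 5.49 ± 0.39. The highest other array of SBT3.5 was clothianidin replicate 1. Its gap was 1.57 with that array and 3.32 without it.

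Hormone-modifying enzymes numbered 2 among the named members. WES1, also known as GH3.5, conjugates auxin and salicylic acid to amino acids and stayed in the set because its symbol does not begin with GH3. Its levels were 7.23 and 8.01 on the imidacloprid arrays, 2.80 and 2.74 in untreated leaves, 4.23 and 2.53 with clothianidin and 3.80 and 3.38 with salicylic acid. AT2G38240, a dioxygenase of the family that hydroxylates jasmonic acid, was at 3.28 and 2.96 in untreated leaves, 8.65 and 2.78 with clothianidin, 7.37 and 2.40 with salicylic acid and 10.61 and 10.50 with imidacloprid. The first arrays of clothianidin and salicylic acid were high for AT2G38240 and the second ones below both untreated arrays, so the replicates of these groups lay wide apart. IAA29, the measured 1 of 6 early auxin response genes listed, was not a member. It read 2.40 and 2.36 with imidacloprid and 6.57 and 2.39 in untreated leaves. With clothianidin it was at 4.19 and 2.37, and with salicylic acid at 5.47 and 2.37. Both imidacloprid arrays and all replicate 2 arrays were thus near background for IAA29.

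Defence proteins and hydrolases gave 5 named members. AT4G16260, a beta-1,3-glucanase family gene, had levels of 8.26 and 6.71 on the imidacloprid arrays, 2.23 and 2.33 in untreated leaves, 2.26 and 2.5 with clothianidin and 3.34 and 3.16 with salicylic acid. Both salicylic acid arrays lay slightly above the other arrays without imidacloprid. OSM34, an osmotin of the thaumatin-like family and chosen after its values were seen, was at 2.21 and 2.34 in untreated leaves, 3.06 and 2.88 with clothianidin, 7.58 and 2.29 with salicylic acid and 9.62 and 9.16 with imidacloprid. Its highest other array was salicylic acid replicate 1, and its gap was 1.48, under the threshold, with repeated quantile normalization. AT2G43870, a polygalacturonase family gene, and AT2G47550, a pectin methylesterase family gene, were both near background on every array without imidacloprid and reached 4.71 and 6.01, and 5.59 and 4.17, with it. CXE20, a carboxylesterase, had an imidacloprid mean of 5.84 ± 0.36 and an untreated mean of 2.32 ± 0.30 (SD, n = 2). Clothianidin replicate 1 was its highest other array, with a gap of 1.59, or 2.76 when that array was left out.

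Regulatory genes with a stated family were 3 protein kinases, AT4G18950, AT1G61610 and AT1G69790, and the basic helix-loop-helix transcription factor AT1G10585. AT1G10585 read 8.54 and 11.12 on the imidacloprid arrays, 3.12 and 2.76 in untreated leaves, 6.47 and 2.98 with clothianidin and 3.64 and 2.64 with salicylic acid. AT4G18950 had 6.18 and 8.36 in untreated leaves, 8.06 and 7.72 with clothianidin, 6.99 and 8.02 with salicylic acid and 10.35 and 10.71 with imidacloprid. In AT4G18950 the gap was 1.99, and the untreated replicates lay further apart than that. AT1G61610, an S-locus lectin receptor-like kinase, was at 6.15 and 5.92 with imidacloprid and at most 4.07 elsewhere. None of 6 WRKY factors measured under that name was a member. With 214 members in 22746 probe sets, nothing is read from that count. The median imidacloprid minus untreated difference of the 6 was 2.31.

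Lipid and membrane proteins included AT4G39670, of the glycolipid transfer protein family, AT5G17760, an AAA ATPase, and AT3G05500, of the lipid droplet-associated rubber elongation factor family. AT4G39670 was measured at 2.23 and 2.49 in untreated leaves, 8.86 and 4.93 with clothianidin, 4.64 and 7.95 with salicylic acid and 11.86 and 11.14 with imidacloprid. It was near background in untreated leaves only. AT4G39675, the protein-coding gene next to it in the annotation, was also a member, at 6.23 and 5.99 on the imidacloprid arrays, 2.44 and 2.84 in untreated leaves, 3.58 and 2.54 with clothianidin and 4.12 and 3.91 with salicylic acid, and this was the only neighbouring pair among the 85 loci. AT5G17760 read 3.40 and 3.26 in untreated leaves, 6.82 and 4.25 with clothianidin, 4.61 and 6.08 with salicylic acid and 9.06 and 9.05 with imidacloprid. All 4 clothianidin and salicylic acid arrays stood between the untreated and the imidacloprid values in both AT4G39670 and AT5G17760. AT3G05500 had an imidacloprid mean of 10.16 ± 0.23 and an untreated mean of 6.93 ± 0.54 (SD, n = 2). Here too clothianidin replicate 1 was the highest other array, and the gap was 1.60 with it and 2.46 without it.

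**Figure D3:**
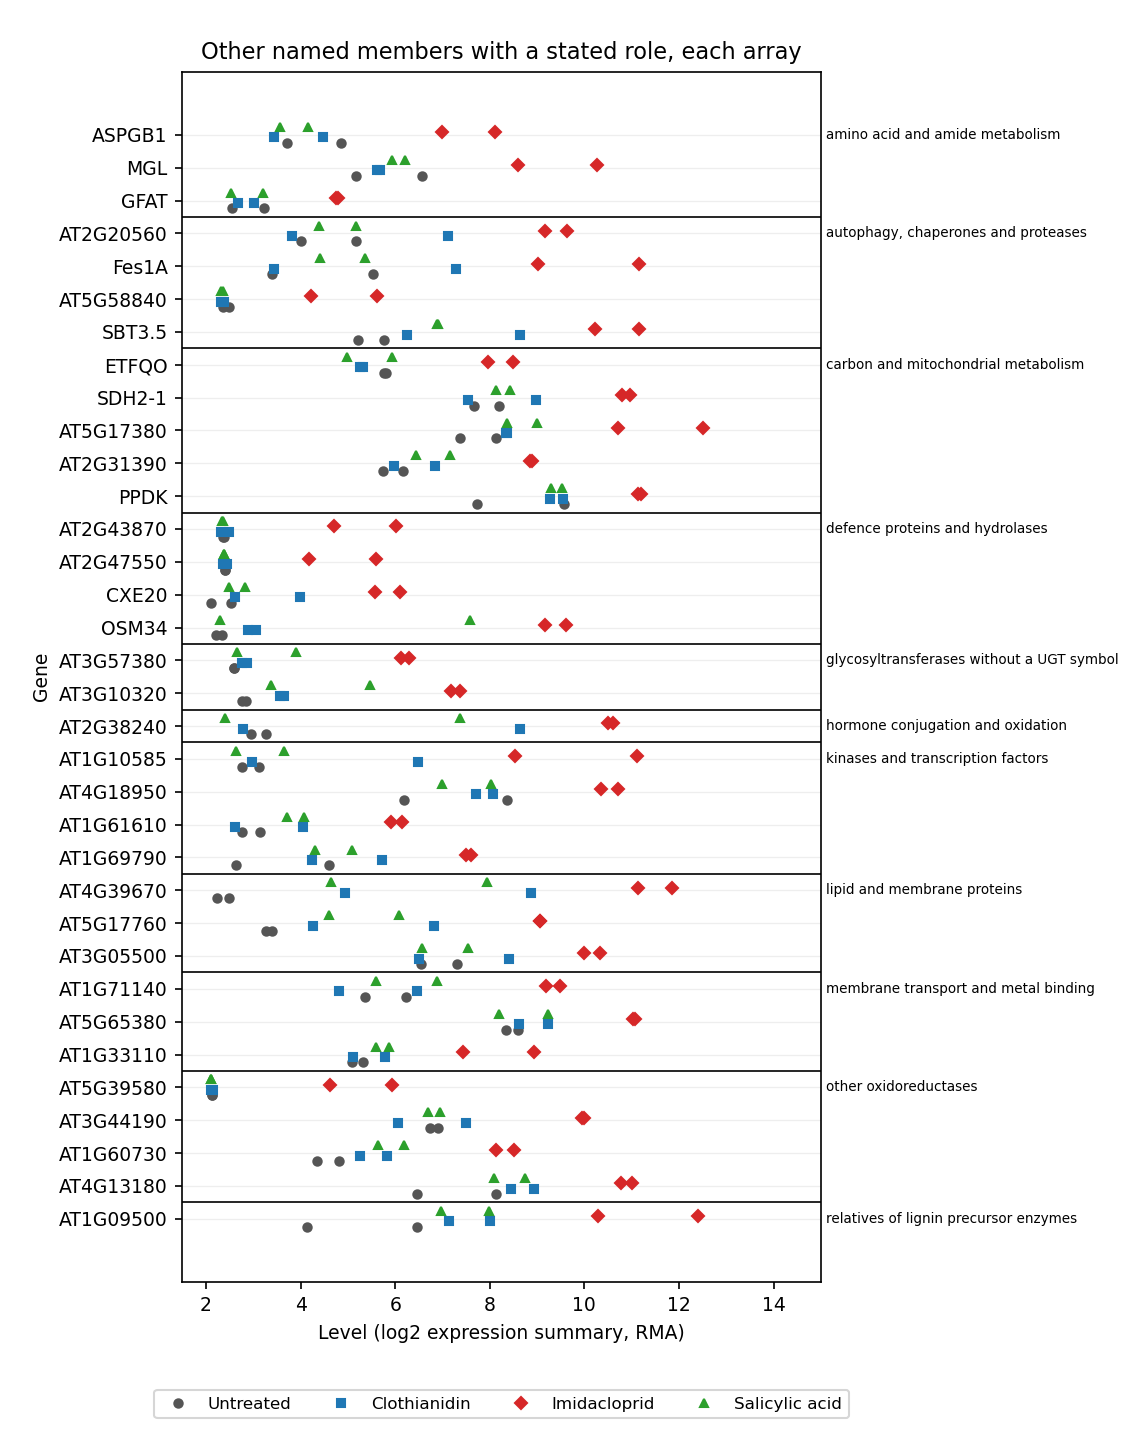
Level (log2 expression summary, horizontal axis) of the other named members with a stated role (vertical axis, grouped by role as written at the right), with 2 points per group, 1 for each array. The 5 genes of carbon and mitochondrial metabolism lie at 4.98 or above in every group, while AT5G39580, AT2G43870, AT2G47550 and AT5G58840 stay at or below 2.48 without imidacloprid.

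The remaining 40 named members have no role stated here. Of these, 9 were among the 20 widest gaps. AT2G37750 had levels of 10.72 and 10.71 on the imidacloprid arrays, 2.66 and 2.93 in untreated leaves, 6.69 and 4.0 with clothianidin and 4.22 and 6.08 with salicylic acid, with imidacloprid replicates equal to within 0.01. AT2G15780 read 2.06 and 2.07 in untreated leaves, 2.07 and 2.04 with clothianidin, 2.06 and 2.06 with salicylic acid and 6.10 and 8.20 with imidacloprid, and AT1G54890 had 6.48 and 7.96 on the imidacloprid arrays, 2.60 and 2.63 in untreated leaves, 2.62 and 2.53 with clothianidin and 2.60 and 2.55 with salicylic acid. AT2G37750 was above both untreated arrays on all 4 clothianidin and salicylic acid arrays, and the other 2 genes differed little between those groups. AT5G57510, AT3G20340, AT4G16680, AT3G61930, AT5G45630 and AT1G42980 were likewise low on all other arrays, between 2.11 and 3.20, and read between 5.43 and 7.54 with imidacloprid.

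The member loci lay on all 5 nuclear chromosomes in numbers of 27, 15, 17, 13 and 13 for chromosomes 1 to 5. In percent of the 85 these are 31.8, 17.6, 20, 15.3 and 15.3, beside 25.7, 16.3, 20.5, 14.6 and 22.4 of all loci with a named probe set. Only 11 of the 65 genes on 7 pathway lists had a named probe set, and 0 of the 11 were members. Apart from BGLU45 and BGLU46, which had passed the gap, 1 of the 11 passed limma's test for imidacloprid against untreated leaves, where 0.202% of all probe sets were called higher. It was the sugar transporter gene SFP1, with a difference of 2.19 (SE 0.19, limma adjusted p = 0.0442), and none was called lower. SFP2, the other monosaccharide transporter gene measured, went the other way, with a difference of -2.32 (SE 0.93, limma adjusted p = 0.276). Close to the gap without reaching it were SFP1 at 1.35, the alternative NAD(P)H dehydrogenase gene NDB2 at 1.22 and the alkenal reductase gene AER at 1.10. Of 26 cytochrome P450 and 14 glutathione S-transferase genes measured under those symbols, 0 were members, and the highest gaps were 0.60 and 0.77. Of all 22746 probe sets 214 were members, and 122 of these had no entry in the probe table. Counts of 0 among so few genes therefore do not show that a pathway or family is absent from the set. Sulfur assimilation genes and ABC exporters on the lists were not analysed here.

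The clothianidin, salicylic acid and untreated arrays entered the rule through a ceiling below imidacloprid. Their differences from each other were fitted over all 22746 probe sets, and because of that ceiling the shares of members below are descriptions, not independent support. In limma's test no member was called in clothianidin against untreated leaves, where 0.00% of all probe sets were called; the smallest adjusted p of a member was 0.996. At an unadjusted p under 0.05, 13 members were higher (6.07%, against 1.11% of all probe sets) and 1 lower (against 1.53%). For 79 members both clothianidin arrays lay above both untreated arrays (36.9%, against 10.0% of all), and for 4 both lay below (against 14.9%). The difference had a median of 0.53, beside -0.02 over all probe sets, and was positive in 172 of 214 members (80.4%, against 35.5% of all).

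The size of that difference depended on the replicate. Within replicate number 1 the clothianidin minus untreated median was 1.03 and 110 members differed by more than 1 (51.4%, against 7.26% of all probe sets). Within number 2 the median was -0.01 and 21 members did (9.81%, against 4.40%). Without clothianidin replicate 1 the median over the members then selected was 0.06, and without replicate 2 it was 0.96. In the fit without replicate 2, 2 of 216 members were called, and these were the only calls among all 22746 probe sets (0.00879%). Clothianidin replicate 1 was above replicate 2 in 191 of 214 members, against 13414 of all 22746 probe sets. The median of replicate 1 minus replicate 2 was 0.87 in the members and 0.02 over all probe sets. Clothianidin replicate 1 was also the highest of the 6 other arrays for 113 members (52.8%, against 9.08% of all probe sets). The label of genes high only with imidacloprid holds for every member by the rule itself, yet many were intermediate on the first clothianidin array. The actin 3′ minus 5′ signal difference, a measure that rises as RNA degrades, was 1.04 and 1.75 on the clothianidin arrays, 0.74 and 1.41 on the salicylic acid arrays, 0.85 and 2.17 on the untreated ones and 0.87 and 1.11 on the imidacloprid ones. A second actin measure lay between 4.96 and 6.20 on the 8 arrays. Their part in the result was not tested.

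**Figure D4:**
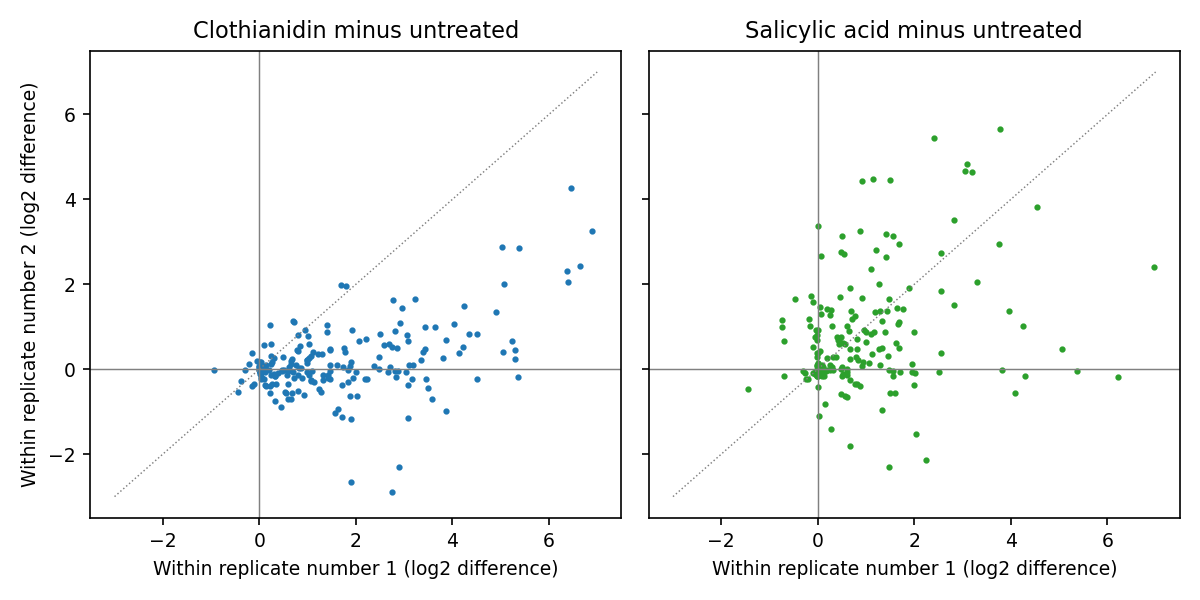
Log2 difference from untreated leaves within replicate number 1 (horizontal axis) and number 2 (vertical axis) for each of the 214 members (points), with clothianidin at the left and salicylic acid at the right; the dotted line marks equal values. Most clothianidin points lie below the dotted line (medians 1.03 and -0.01), and the salicylic acid points spread to both sides of it (0.49 and 0.13).

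Salicylic acid against untreated leaves also gave no call among the members (0.00% of all probe sets; smallest limma adjusted p of a member 0.975). At an unadjusted p under 0.05, 20 members were higher (9.35%, against 1.51%) and 0 lower (against 1.87%). Both salicylic acid arrays lay above both untreated arrays for 82 members (38.3%, against 8.28%) and below them for 22 (10.3%, against 34.7%). The median difference was 0.46, and 0.49 and 0.13 within replicate numbers 1 and 2. Without salicylic acid replicate 1, with 1 salicylic acid array left, 3 of 222 members were called, beside 37 of all probe sets (0.163%).

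Directly compared, clothianidin and salicylic acid gave no call among the members (0.00% of all probe sets), and 0 members were higher and 1 lower with clothianidin at an unadjusted p under 0.05 (against 0.646% and 0.572%). The median difference was 0.02, and single members ran from -1.97 to 2.0. Both clothianidin arrays lay above both salicylic acid arrays for 18 members (8.41%, against 8.32%) and below them for 12 (5.61%, against 6.05%), shares near those of all probe sets. Without clothianidin replicate 2, which left 1 clothianidin array, the median was 0.45 and 2 of 216 members were called (0.00879% of all probe sets), and without replicate 1 the median was -0.27.

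The named members and probe sets with the widest differences from untreated leaves outside imidacloprid included AT1G05340, AT4G39670 and 260551_at. AT1G05340 was at 2.92 and 4.47 in untreated leaves, 9.37 and 8.75 with clothianidin, 6.70 and 10.14 with salicylic acid and 11.68 and 13.53 with imidacloprid. With clothianidin it differed from untreated leaves by 5.37 (SE 1.38; 95% confidence interval 1.78 to 8.95; limma adjusted p = 0.996) and with salicylic acid by 4.72 (SE 1.38; 1.13 to 8.31; limma adjusted p = 0.975). In AT4G39670 both untreated arrays were near background, so its differences of 4.54 with clothianidin and 3.93 with salicylic acid are not exact. Probe set 260551_at differed by 5.07 and 4.69, and 245317_at followed with salicylic acid at 4.18. None passed the limma test. At the other end, ETFQO, SWEET2 and 252415_at had the lowest clothianidin differences, at -0.50 (-1.42 to 0.43), -0.49 (-4.33 to 3.35) and -0.38 (-3.69 to 2.93). SWEET2, 254562_at and 266693_at had the lowest with salicylic acid, at -0.95, -0.56 and -0.56. The intervals of SWEET2 include both a large fall and a large rise.

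For comparison with the usual test, 26 members were called higher with imidacloprid than in untreated leaves (0.202% of all probe sets were), 14 higher than with clothianidin (0.0923%) and 13 higher than with salicylic acid (0.0791%). The rule used these contrasts, so nothing is read from the counts. The replicate difference on the imidacloprid arrays had a median size of 0.74 in the members and 0.18 over all probe sets. Replicate 1 was the higher one in 72 of 214 members, against 13712 of all 22746 probe sets. Of the leaf cell markers listed, 1 of 6 for mesophyll and 1 of 3 for guard cells had a named probe set. RCA, Rubisco activase of mesophyll cells, was between 13.22 and 14.37 on all arrays. FMA, a transcription factor of the guard cell lineage, was at 3.15 and 4.14 with imidacloprid and between 4.56 and 5.59 elsewhere. Markers of trichomes, phloem, xylem and roots were not analysed here. In whole leaves, more cells of a type and more RNA per cell cannot be told apart.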

How the data were processed

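The authors deposited log2 expression summaries of 22810 probe sets for 8 arrays, made by RMA (affy) as listed per the submitters' processing notes, without a version. RMA corrects background, equalises array distributions and summarises probes, so a shift shared by all transcripts would be removed. Scan depth has no counterpart here, and the precision is limited by 2 arrays a group. Groups follow the labels, and because 1 sample came from each independent experiment, the spread includes that between experiments.

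One model of all 4 group means was fitted to 22746 probe sets with limma 3.58.1 in R 4.3.3 (lmFit, eBayes, 4 residual degrees of freedom), with Benjamini-Hochberg adjustment over all of them and a threshold of 0.05. An exact permutation test of 2 against 2 arrays cannot go below 0.333. Tables and plots used Python 3.11.15, pandas 2.3.3 and matplotlib 3.10.9. On simulated data for clothianidin against untreated leaves with 22746 probe sets, 18 of 50 were called at a log2 change of 1 and 23 of 50 at 2. At a change of 4 it was 33 of 50 and at 6 it was 40 of 50, with 11 of 22546 unchanged ones called. The changed ones were drawn at random from all probe sets, where the clothianidin replicate difference had a median size of 0.21. In the members that median was 0.88, so these rates do not hold for the members.

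The members and gene lists were chosen with earlier results of these data known. Genes were named only where the platform annotation gave 1 locus, with symbols from RefSeq for TAIR10.1, and roles are general background. Genes named in the text are the 20 named members with the widest gap, up to 3 more per role, the 3 highest and 3 lowest differences for clothianidin and for salicylic acid, neighbouring members and listed genes. Any further one was chosen after its values were seen. It is marked so where it is described, apart from AT4G13180, AT1G69790 and AT4G02940. Replicate differences correlated at 0.302 between untreated and clothianidin arrays, 0.523 between untreated and salicylic acid and 0.361 between clothianidin and salicylic acid, and between -0.002 and 0.230 with imidacloprid. The labels do not say that a number marks 1 experiment across treatments, and 2 numbers are too few to settle it, so the main fit has no block and the fit with it is an alternative. Alternatives were other scalings, gaps, variance settings and a low-value filter, a replicate block and leaving out each array.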

Additional observations from a re-analysis of the deposited data

How the results depend on the processing

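The number of members moved from 214 to 408 at a gap of at least 1, to 128 at a gap of at least 2, and to 783 when the imidacloprid mean was set against the highest other group mean. By construction a looser rule admits more probe sets. Median centring gave 250 members and repeated quantile normalization 216, of which 203 were among the 214. Of the 85 named members, 4 fell under the threshold there: PPDK (1.46), OSM34 (1.48), AT1G33110 (1.4995) and AT4G02940 (1.44). Leaving out each array in turn gave 214 to 604 members. The highest counts came without imidacloprid replicate 1 (604) or 2 (396), clothianidin replicate 1 (335) and salicylic acid replicate 2 (329). Over the same settings the median ranged from 0.06 to 0.96 for clothianidin minus untreated, from 0.30 to 0.51 for salicylic acid minus untreated and from -0.27 to 0.45 for clothianidin minus salicylic acid. Members called ranged from 0 to 2, 0 to 3 and 0 to 2 in these comparisons. A group left with 1 array was assumed to vary like the others. With the replicate block 0 members were called in each of the 3 comparisons, as in the fit without it. The comparison of promoter motifs and its shorter window were not run. Untreated signal near background limits the size of differences in 42 members, and 2 arrays a group limit every test.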
